A study of Homo sapiens with 6 samples.

Results

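The interferon regulatory factors are a family of transcription factors that share a tryptophan-rich DNA-binding domain and read GAAA repeats in promoters of antiviral and immune genes. Described here are 8 of them, IRF1, IRF2, IRF3, IRF4, IRF5, IRF7, IRF8 and IRF9, found by gene symbol and the protein-coding class among the 58735 genes of the deposited table. The RNA came from HepaRG, an established human line of bipotent liver progenitors, which had been differentiated towards hepatocytes in medium with 1.8% DMSO. Every culture was transfected with siRNA, left for 48 h and then loaded with 2 fatty acids, 800 µM oleic and 400 µM palmitic, over another 24 h. Treatment was labelled PTPF in 3 libraries and STATF in 3, without further explanation. The study's siRNAs were aimed at STAT3 and at PTPRD, a phosphatase that the title of the series ties to STAT3. None of the 6 libraries was labelled as control siRNA.

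Interferon regulatory factors work at both ends of the interferon response. IRF3, IRF5 and IRF7 lie dormant in the cytoplasm until sensors of foreign nucleic acid or Toll-like receptors trigger kinases that activate them, and they then switch on interferon genes. IRF9 joins STAT2 in the complex ISGF3, which carries the signal of type I and type III interferons to the nucleus. IRF1 is itself made on demand after interferon gamma and other cytokines and drives antigen presentation and guanylate-binding protein genes, IRF2 competes with it at the same sites, and IRF4 and IRF8 serve mainly lymphoid and myeloid cells.

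Gene counts totalled 33225627 to 40796767 per library. STAT3 stood at 443 ± 12.2 CPM under the PTPF label and at 119.6 ± 10.6 CPM under STATF (SD, n = 3 each). CPM are read counts scaled to library size by the TMM method. PTPRD stood at 11.5 ± 1.37 and 11.5 ± 0.603 CPM (SD, n = 3 each), so every direction below is between libraries by label. All 10 hepatocyte markers examined were detected, with summed levels of 42170 to 48910 CPM under PTPF and 40020 to 40900 CPM under STATF. The order of these sums came from SERPINA1, since the other 9 markers summed to 20140 to 22860 CPM under PTPF and 25630 to 26890 CPM under STATF. Of 8 biliary markers, EPCAM was at 0 in every library and CFTR had 7 counts in all. Under PTPF and STATF, CD24 stood at 185.1 ± 12.8 and 120.5 ± 2.41 CPM (SD, n = 3 each). KRT19 stood at 75.7 ± 6.40 and 112.7 ± 10.3 CPM (SD, n = 3 each). Whether replicates came from separate cultures is not stated, and p-values here reflect only how these libraries varied, which may be technical.

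All 7 members that passed the filter on low counts were measured lower in the libraries labelled PTPF, and 5 of the 7 passed the test while none was higher. IRF1 and IRF9 were each 3.1-fold lower, IRF7 was 1.72-fold lower, IRF8 1.45-fold and IRF3 1.15-fold. IRF2 and IRF5 did not pass, and IRF4 was close to 0 in both groups and was not tested. Among all 17844 genes tested by edgeR's quasi-likelihood test, 21.6% passed an adjusted p of 0.05, 11.6% as lower and 10.1% as higher, or 2062 and 1801 genes, where scaling by library totals alone gave 2981 and 1164. A log2 fold change below 0 was found in 49.7% of them. In all 7 tested members the ranges of the groups did not overlap, PTPF being the lower, where 35.7% of all genes tested showed no overlap and 18.4% showed it with PTPF lower. The median log2 fold change of the 7 was -0.54, beside 0.00 for all genes tested. Without PTPF replicate 3 the number of members past the test was 3 (IRF1, IRF7 and IRF9), and against a change of at least 1.5-fold it was 2 (IRF1 and IRF9).

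**Figure D1:**
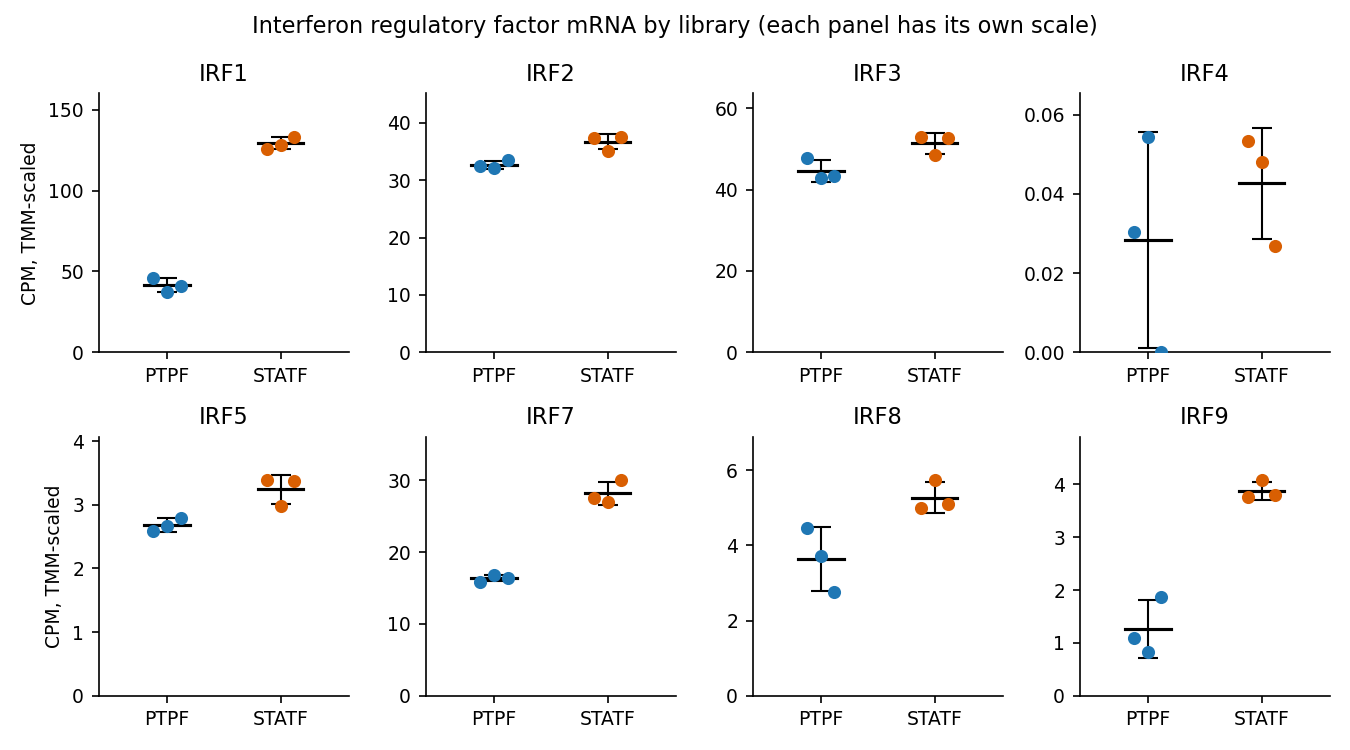
TMM-scaled CPM of the 8 family members (vertical axes, each panel with its own scale from 0) in PTPF-labelled (blue) and STATF-labelled (orange) libraries. Points are libraries, lines are means and bars are SD (n = 3); in every panel but that of IRF4 all PTPF points lie below all STATF points.

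The sequences around the starts of IRF1 and IRF9, the members with the largest changes, are shown because each holds a GAS motif (TTCNNNGAA), the palindrome that STAT dimers bind. RefSeq promoters (GRCh38.p14) were at hand for 5 of the 8 members, with IRF2, IRF3 and IRF7 not matched, and the 250 bases before each start were searched on both strands. IRF1 lies on the minus strand of chromosome 5, and its match lies 124 to 116 bases before the RefSeq start, upstream of the annotated first exon. That of IRF9, on the plus strand of chromosome 14, lies 63 to 55 bases before the RefSeq start. It is inside the gene span that GENCODE release 29 annotates, which begins farther upstream. Each line gives the match in capitals with 10 bases on either side, at chr5:132490879-132490907 for IRF1 and chr14:24161192-24161220 for IRF9.
IRF1: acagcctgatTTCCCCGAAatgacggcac
IRF9: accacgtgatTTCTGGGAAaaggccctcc

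The stretch of IRF1 from chr5:132490799-132491023, which runs 5′ to 3′ on the minus strand up to the annotated gene, carries the same GAS match in capitals. It ends at the part of the first exon that GENCODE annotates.
IRF1 upstream: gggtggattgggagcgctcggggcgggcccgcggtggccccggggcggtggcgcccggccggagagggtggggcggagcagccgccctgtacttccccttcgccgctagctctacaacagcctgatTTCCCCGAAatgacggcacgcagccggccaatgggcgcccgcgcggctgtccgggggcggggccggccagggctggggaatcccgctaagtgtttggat

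A GAS match was present in 6.57% of 35116 RefSeq promoter windows of the same length. IRF1 also held a match to the NF-kB consensus 50 to 41 bases before its start, which overlaps no GAS match, and 9.96% of all windows hold one. The core of the interferon-stimulated response element, 2 GAAA repeats with 2 bases of any kind between them, the motif that ISGF3 binds, was in 3.02% of all windows and in none of those of IRF1, IRF4, IRF5, IRF8 or IRF9. Windows of IRF4, IRF5 and IRF8 held none of the 3 motifs. All windows of IRF5 and IRF8 lie inside the gene spans that GENCODE release 29 annotates. For IRF8 the first window begins at base 85902580 of chromosome 16, and the annotated gene begins at 85898803. Bases upstream of the annotated starts of IRF5 and IRF8 were thus not searched. The matches are letters in a sequence, and binding was not measured.

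IRF1 (chromosome 5, 132481609 to 132490798 of GRCh38, minus strand), the inducible activator, had the most counts of the family over all 6 libraries together. In PTPF-labelled replicates 1, 2 and 3 it stood at 46.2, 37.4 and 41.2 CPM, from 1344 to 1521 counts. In STATF-labelled replicates 1, 2 and 3 it stood at 126.1, 128.5 and 133.5 CPM, from 4732 to 5352 counts. The lowest STATF library was well above the highest PTPF library. Means were 41.6 ± 4.38 and 129.4 ± 3.74 CPM (SD, n = 3 each), which is -1.64 on the log2 scale (SE 0.065) with an edgeR adjusted p of 1.27e-16. Two-sided exact permutation tests gave p = 0.1 for each of the 7 tested members, the smallest that 3 against 3 libraries allow.

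Of the exon bases of IRF1, 22% also belong to genes on the opposite strand. The longer overlap is with C5orf56, an antisense processed transcript, which stood at 4.24 ± 0.644 against 8.27 ± 0.239 CPM (SD, n = 3 each), or -0.96 on the log2 scale (SE 0.12) with an edgeR adjusted p of 1.13e-06. The strand setting of the counting is not given in the sources used here, and reads of both genes within the shared bases cannot be told apart. Counts of C5orf56 equalled 7.69% to 12.9% of those of IRF1 in PTPF-labelled libraries and 6.38% to 6.41% in STATF-labelled ones.

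IRF2 (chromosome 4, 184387713 to 184474580, minus strand), the competitor of IRF1, differed far less. It was measured at 32.5, 32.2 and 33.5 CPM in PTPF-labelled replicates 1, 2 and 3 and at 37.4, 35.2 and 37.6 CPM in STATF-labelled ones. The groups did not overlap, yet the log2 fold change of -0.16 (95% interval -0.29 to -0.04) had an edgeR adjusted p of 0.0571. It passed with library totals as the only scaling (edgeR adjusted p = 0.00942) and with at least 50 counts in 3 libraries (0.0480), among adjusted p-values of 0.00942 to 0.173 over 15 fits.

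Within a library the ratio of IRF1 to IRF2 counts needs no scaling. It was 1.42, 1.16 and 1.23 in PTPF-labelled replicates 1, 2 and 3 and 3.38, 3.66 and 3.55 in STATF-labelled ones. So IRF1 had slightly more reads than its competitor under one label and more than 3 times as many under the other. The mean ratio was 2.79-fold lower in PTPF-labelled libraries, a log2 difference of -1.48, with an exact permutation p of 0.1 (adjusted over the 3 ratios examined, 0.1), two-sided and the smallest possible. A ratio of counts compares 1 pair across libraries, and does not compare levels of the 2 genes, whose lengths differ.

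**Figure D2:**
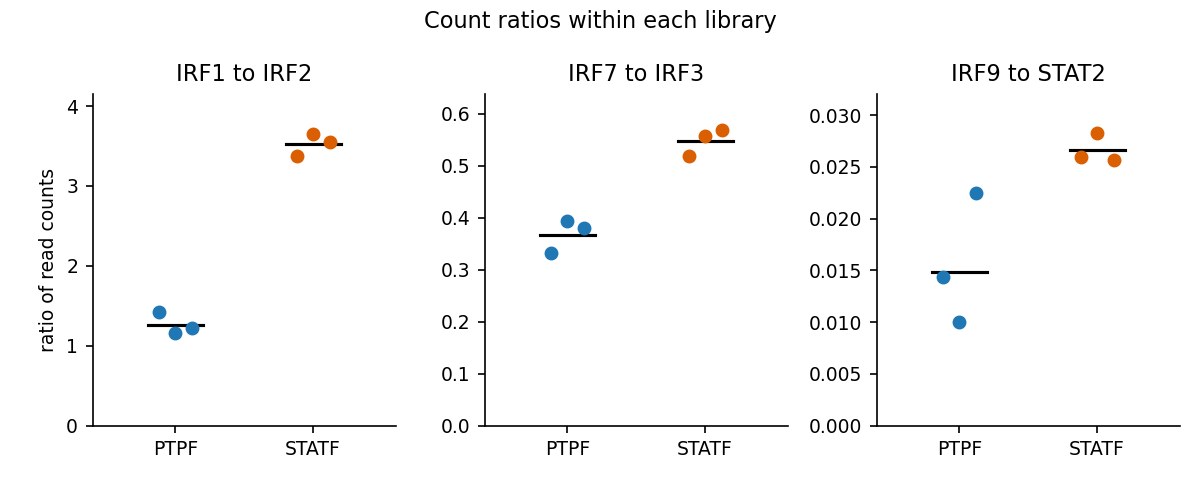
Ratio of read counts within each library (vertical axes from 0) for 3 pairs, in PTPF-labelled (blue) and STATF-labelled (orange) libraries. Points are libraries and lines are geometric means (n = 3); in each pair all 3 PTPF points lie below all STATF points, from 1.16 to 1.42 against 3.38 to 3.66 for IRF1 to IRF2.

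IRF9 (chromosome 14, 24161053 to 24166565, plus strand), the DNA-binding subunit of ISGF3, changed as much as IRF1 but on few reads. It had 36, 30 and 61 counts in PTPF-labelled replicates 1, 2 and 3, or 1.09, 0.818 and 1.87 CPM. It had 141, 170 and 142 counts in STATF-labelled replicates 1, 2 and 3, or 3.76, 4.08 and 3.80 CPM. PTPF replicate 3 was the highest of its group and still below every STATF library. The log2 fold change was -1.63 (SE 0.21, 95% interval -2.07 to -1.19, edgeR adjusted p = 1.81e-06), and between -2.03 and -1.38 when 1 library was left out. Over PTPF-labelled libraries the coefficient of variation was 43.3%, where counting error alone gives 15.4%.

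Of the exon bases of IRF9, 48.4% also belong to AL136295.5, a readthrough gene on the same strand with 3 to 11 counts per library. How reads that fit both genes were treated is not given in the sources used here, so the level of IRF9 may leave out reads from its shared exons. STAT2, with which it works in ISGF3, was measured on far more reads and has no exon base in common with another gene. STAT2 had 81.2 ± 3.45 CPM under PTPF and 146.1 ± 1.75 CPM under STATF (SD, n = 3 each), or -0.85 on the log2 scale (edgeR adjusted p = 3.01e-12). Both genes were thus lower in PTPF-labelled libraries. The ratio of IRF9 to STAT2 counts was 0.0143, 0.0101 and 0.0225 in PTPF-labelled replicates 1, 2 and 3 and 0.0260, 0.0283 and 0.0257 in STATF-labelled ones. It was 1.80-fold lower in PTPF-labelled libraries, with an exact permutation p of 0.1 (0.1 adjusted over the 3 ratios). The size of this difference depended on single libraries. On the log2 scale it was -0.85 with all libraries, -0.57 without PTPF replicate 2 and -1.15 without PTPF replicate 3.

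IRF7 (chromosome 11, 612553 to 615999, minus strand), the interferon-inducible factor that amplifies interferon production, stood at 15.9, 16.8 and 16.5 CPM in PTPF-labelled replicates 1, 2 and 3. It stood at 27.5, 27.0 and 30.04 CPM in STATF-labelled ones. The spread within each group was small beside the gap between them. The change was -0.78 on the log2 scale (SE 0.072, edgeR adjusted p = 3.17e-09), and no exon base is shared with another annotated gene. In a test against a change of 1.5-fold its adjusted p was 0.0642.

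IRF3 (chromosome 19, 49659569 to 49665875, minus strand), the constitutive partner of IRF7, stood at 47.8, 42.8 and 43.4 CPM in PTPF-labelled replicates 1, 2 and 3. It stood at 53.1, 48.4 and 52.8 CPM in STATF-labelled ones. The highest PTPF library was just below the lowest STATF library. The log2 fold change was -0.20 (SE 0.062, edgeR adjusted p = 0.0180). It no longer passed without PTPF replicate 2 (edgeR adjusted p = 0.0780), PTPF replicate 3 (0.0829), STATF replicate 1 (0.0996) or STATF replicate 3 (0.0884). BCL2L12, a gene on the opposite strand that holds 19.3% of the exon bases of IRF3, had a log2 fold change of 0.21 (edgeR adjusted p = 0.0728). Its counts equalled 35.6% to 36.9% of those of IRF3 in PTPF-labelled libraries and 26.3% to 27.9% in STATF-labelled ones. As the strand setting is not given, reads of both genes within the shared bases cannot be told apart.

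The ratio of IRF7 to IRF3 counts was 0.333, 0.393 and 0.380 in PTPF-labelled replicates 1, 2 and 3 and 0.519, 0.559 and 0.570 in STATF-labelled ones. It was 1.49-fold lower in PTPF-labelled libraries, with an exact permutation p of 0.1 (0.1 adjusted over the 3 ratios). The inducible factor thus made up a smaller part of this pair in each of the PTPF-labelled libraries.

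IRF5 (chromosome 7, 128937612 to 128950035, plus strand), which acts downstream of Toll-like receptors in immune cells, was low. It had 85 to 98 counts in PTPF-labelled libraries, or 2.58, 2.67 and 2.79 CPM in replicates 1, 2 and 3. It had 124 to 127 counts in STATF-labelled ones, or 3.39, 2.98 and 3.37 CPM. The groups did not overlap, but the log2 fold change of -0.27 had a 95% interval of -0.60 to 0.05 (edgeR adjusted p = 0.240), and IRF5 passed in none of the 15 fits. A reduction of the size seen for IRF7 is outside that interval.

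IRF8 (chromosome 16, 85898803 to 85922609, plus strand), a factor of myeloid and B-cell lineages, stood at 4.46, 3.71 and 2.76 CPM in PTPF-labelled replicates 1, 2 and 3, from 90 to 147 counts. It stood at 4.99, 5.74 and 5.10 CPM in STATF-labelled ones, from 187 to 239 counts. PTPF replicate 1 came close to the STATF range and PTPF replicate 3 was far below it. The log2 fold change was -0.54 (SE 0.15, edgeR adjusted p = 0.0119). Without PTPF replicate 3 it was -0.37 (edgeR adjusted p = 0.0946) and without STATF replicate 2 it was -0.47 (0.0673), so this call rests on single libraries.

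IRF4 (chromosome 6, 391739 to 411447, plus strand), a factor of plasma cells and activated lymphocytes, had 3 counts over the PTPF-labelled libraries together and 5 over the STATF-labelled ones. No library held more than 2 counts, which is under the 3 counts that a count of 0 allows (0.0720 to 0.0919 CPM per library). No fold change is given.

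Markers of blood cells were examined because IRF4, IRF5 and IRF8 are best known there. The pan-leukocyte marker PTPRC had 1 count over all 6 libraries, the B-cell marker MS4A1 also had 1, and the T-cell and plasmacytoid markers CD3E and CLEC4C were at 0, as was the plasma-cell marker TNFRSF17. Other markers of these cells did have reads, with 35 to 56 counts per library for the T-cell receptor component CD3D, 129 to 232 for IL3RA, the interleukin 3 receptor chain of plasmacytoid cells, and 6 to 18 for NKG7. As background for calls among markers, here and in the other cell types, 11.6% of all genes tested were lower and 10.1% higher. Of 10 myeloid markers 5 were tested. One was higher in PTPF-labelled libraries, CD14 (log2 fold change 0.80, edgeR adjusted p = 4.92e-07), and none was lower. Their summed level was 18.6 to 21.8 CPM under PTPF and 13.4 to 14.8 CPM under STATF. That difference was CD14 alone (14.2 ± 1.62 against 8.14 ± 0.604 CPM, SD, n = 3 each), as the other 9 markers summed to 4.96 to 6.28 CPM under PTPF and 5.91 to 6.20 CPM under STATF. The macrophage receptors CD163 and MARCO had log2 fold changes of -0.38 and -0.61 (edgeR adjusted p = 0.314 and 0.340). Of 10 lymphoid and plasmacytoid markers 4 were tested and 1 was lower, SDC1, which epithelial cells also express and which made up nearly all of their summed level (356.3 to 372.7 against 437.9 to 454.0 CPM, and 5.74 to 6.53 against 6.25 to 6.87 CPM for the other 9 together). The part of these markers in the change of IRF8 was not tested. In bulk RNA, fewer cells of a type and less RNA per cell cannot be told apart.

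Of the other cell types, endothelial markers had 1 lower of 3 tested (KDR, -0.69 on the log2 scale), with a summed level of 33.8 to 39.8 CPM under PTPF and 57.9 to 61.7 CPM under STATF. KDR, with 35.8 ± 3.36 against 57.6 ± 2.23 CPM (SD, n = 3 each), was nearly the whole of that sum, and the other 6 markers together reached 1.04 to 1.67 against 1.61 to 2.16 CPM. Mesenchymal markers had 1 lower of 4 tested (ACTA2, -0.35), with 32.4 to 37.4 against 40.4 to 42.0 CPM. Biliary markers had 1 higher (CD24) and 2 lower (KRT19 and SOX9) of 6 tested, with 302.2 to 336.6 against 289.8 to 307.6 CPM, or 125.1 to 136.7 against 169.4 to 185.1 CPM without CD24. Hepatocyte markers had 2 higher, SERPINA1 (0.71 on the log2 scale) and ASGR1 (0.49), and 4 lower, CYP3A4 (-1.34), TF (-0.38), ALB (-0.31) and APOA1 (-0.25), of 10 tested. The part of these shifts in the changes of IRF genes was not tested.

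**Figure D3:**
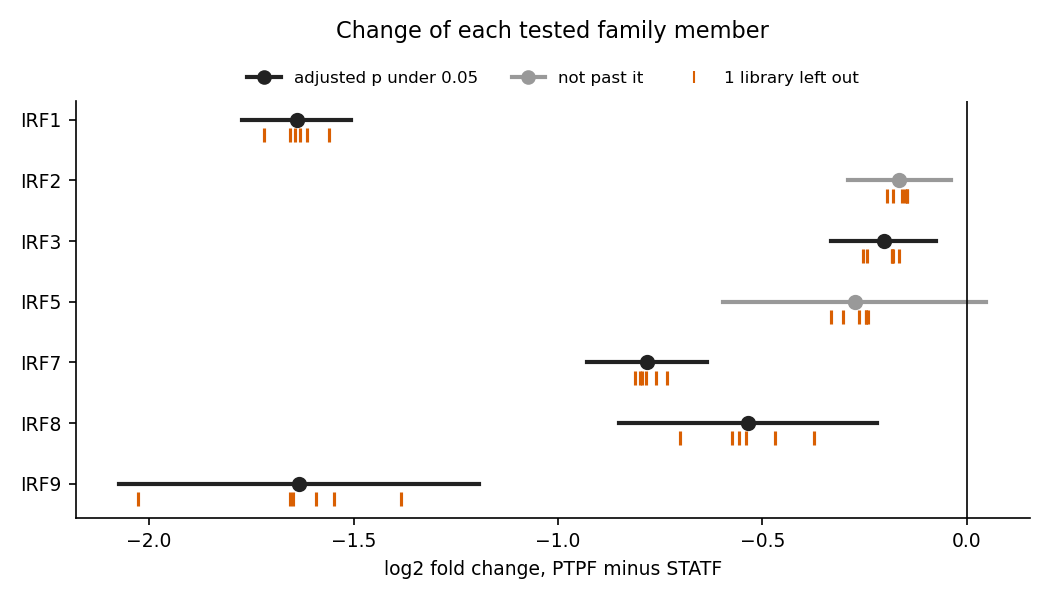
Log2 fold change of the 7 tested members, PTPF minus STATF (horizontal axis), with 95% intervals as lines, black for members past an adjusted p of 0.05 and grey for the rest. Orange ticks are the values with 1 library left out; IRF1 at -1.64 and IRF9 at -1.63 lie farthest from 0, and the ticks of IRF9 and IRF8 spread the most.

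Levels of different members can be compared only per length. The deposited length of each member equals all its exon bases in GENCODE release 29 joined, not the length of a single transcript. Levels per transcript length were not computed, so the order and shares below hold for this length. In CPM per kilobase of deposited gene length, the order in STATF-labelled libraries was IRF1 (16.6 ± 0.48), IRF3 (13.6 ± 0.684), IRF2 (11.8 ± 0.431) and IRF7 (10.7 ± 0.611), all SD with n = 3. Then came IRF9 (1.02 ± 0.0467), IRF8 (1.02 ± 0.0785), IRF5 (0.741 ± 0.0527) and IRF4 (0.00724 ± 0.00239). The ranges of IRF2 and IRF7 overlapped, as did those of IRF9 and IRF8, and no other neighbours did. In PTPF-labelled libraries the order was IRF3 (11.8 ± 0.725), IRF2 (10.5 ± 0.223), IRF7 (6.24 ± 0.175) and IRF1 (5.33 ± 0.562), then IRF8 (0.705 ± 0.165), IRF5 (0.612 ± 0.0239), IRF9 (0.332 ± 0.144) and IRF4 (0.00480 ± 0.00463). Of these neighbours, only the ranges of IRF8 and IRF5 overlapped. By this measure IRF1 was the first of the family in STATF-labelled libraries and the fourth in PTPF-labelled ones. Its place under PTPF depended on the length used. With the same CPM divided by only the exon bases that no other gene shares, a setting chosen after the data were seen, IRF1 was the third under PTPF, at 6.84 ± 0.721 per kilobase beside 6.24 ± 0.175 for IRF7 (SD, n = 3 each). The ranges of IRF1 and IRF7 then overlapped, and IRF1 remained the first under STATF at 21.3 ± 0.615.

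Summed over the 8 members, the level per length was 36.7, 34.4 and 35.4 in PTPF-labelled replicates 1, 2 and 3 and 55.4, 53.7 and 57.3 in STATF-labelled ones. IRF1 made up 15.0% ± 1.07 of this sum under PTPF and 29.9% ± 0.74 under STATF (SD, n = 3 each). The share of IRF2 was 29.6% ± 1.08 against 21.2% ± 0.353, and that of IRF3 was 33.1% ± 1.03 against 24.4% ± 0.757 (SD, n = 3 each). The share of IRF7 was 17.6% ± 1.08 against 19.4% ± 0.538. So most of the difference in the family's summed level lay in IRF1 and IRF7. Divided by its unshared exon bases, with reads not recounted, IRF9 stood at 0.644 ± 0.279 per kilobase under PTPF and at 1.98 ± 0.0906 under STATF (SD, n = 3 each). Its range then overlapped those of IRF8 and IRF5 under PTPF and stood above IRF8 under STATF, below the first 4 members under both labels.

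**Figure D4:**
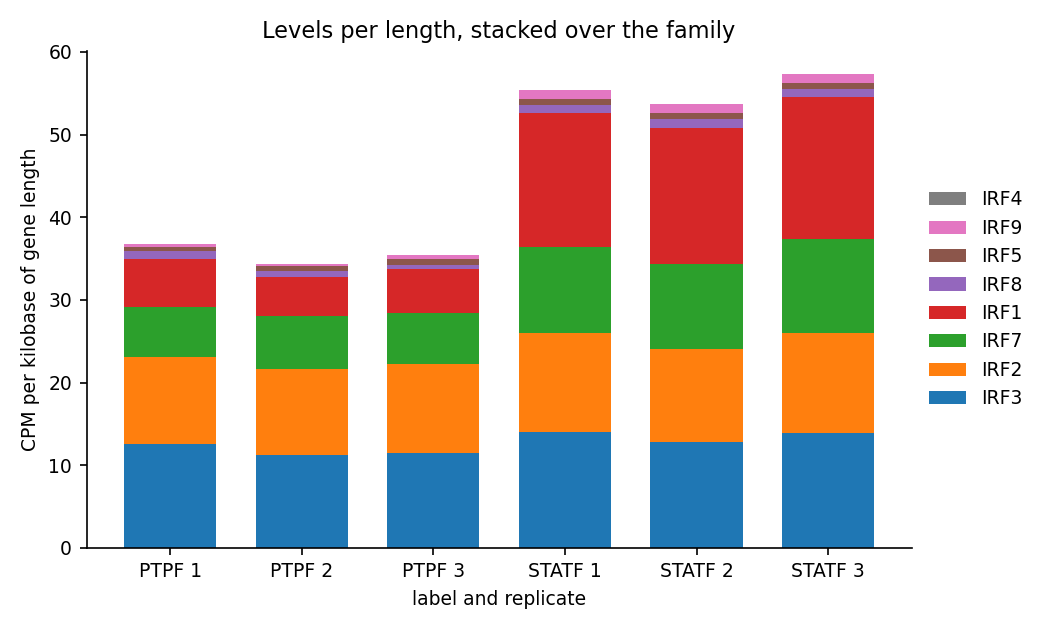
CPM per kilobase of gene length (vertical axis), stacked over the 8 members, for each library by label and replicate. The stacks reach 34.4 to 36.7 in PTPF-labelled and 53.7 to 57.3 in STATF-labelled libraries, and the red part (IRF1) differs most.

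The genes whose pattern over the 6 libraries was closest to each member were found by Euclidean distance between log2 CPM profiles centred on each gene's mean, among 11714 protein-coding genes. For IRF1 these were the peptide transporter gene TAP1 (distance 0.167), the chemokine CX3CL1 (0.182) and the adenylate cyclase ADCY8 (0.204). For IRF7 they were the sodium pump subunit ATP1B1 (0.0840), SAMD9 (0.101), an antiviral factor, and the cytokine IL18 (0.113). For IRF9 the distances were larger, 0.521 for the chloride channel ANO1, 0.614 for RTP4 and 0.640 for the bile acid importer SLC10A1. For IRF8 they were TMEM229B (0.249), GRIK2 (0.260) and NEK11 (0.271). The nearest to IRF2 was ARF6 (0.0372), to IRF3 ASF1A (0.0524) and to IRF5 MAGEC1 (0.0640). These distances describe 6 libraries that differ mainly by label. They also depend on the size of a member's change and on its counting error, and do not rank members against each other. The Pearson correlation was 0.993 for IRF9 with ANO1 and 0.994 for IRF2 with ARF6.

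Upstream of IRF3, IRF5 and IRF7, 18 of 24 listed sensors, adaptors and kinases were tested, of which 6 were lower and 1 higher. Their median was -0.15 on the log2 scale. As background for this list and those below, 11.6% of all genes tested were lower and 10.1% higher. The RNA sensors IFIH1 and DDX58 and the RNA-sensing receptor TLR3 were lower, with log2 fold changes of -1.02, -1.02 and -0.93. IFIH1 had 22.6 ± 0.972 CPM under PTPF and 46.0 ± 2.51 CPM under STATF (SD, n = 3 each). The one member that was higher, named after its value was seen, was TMEM173, which encodes the adaptor STING, by 1.05 on the log2 scale. The kinases that phosphorylate IRF3 and IRF7, also named after their values were seen, did not pass: TBK1 had a log2 fold change of -0.12 and IKBKE -0.31 (edgeR adjusted p = 0.216 and 0.103).

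Interferon genes themselves, many but not all of them targets of IRF3 and IRF7, and with interferon gamma in the list, were near or at 0. Of 21 listed, 15 had no count in any library and 1, IFNE, passed the filter, with 6 to 16 counts per library and a log2 fold change of 0.01 (edgeR adjusted p = 0.991). IFNB1 had 2 counts, both in STATF replicate 2, and IFNG and IFNL1 had 0. A count of 0 allows up to 3 counts per library, so lower levels were not detectable at this depth.

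Between interferon receptors and IRF9 or IRF1, all 11 listed genes were tested, and 4 were lower and 2 higher, with a median of -0.15. STAT2 was lower, as given above, and the interferon gamma receptor subunit IFNGR1 was higher, with 297.5 ± 6.61 CPM under PTPF and 165.7 ± 6.99 CPM under STATF (SD, n = 3 each; log2 fold change 0.84, edgeR adjusted p = 4.31e-12). Further calls, named after their values were seen, were the kinases JAK1 (-0.31) and JAK2 (-0.40), lower, and IFNAR1 (0.20), a type I receptor subunit, higher. With library totals as scaling, 1 of the 11 was higher.

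Of 25 listed targets of ISGF3, 24 were lower and none higher. Their median was -1.61 on the log2 scale. IFIT3, OAS2 and IFI44L, all antiviral interferon-induced genes, had log2 fold changes of -2.25, -2.36 and -4.05. The member not called, named after its value was seen, was HERC5 (-0.20, edgeR adjusted p = 0.0678), a ligase for the ubiquitin-like protein ISG15.

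Of 28 listed targets of IRF1, 27 were tested, of which 24 were lower and none higher, with a median of -0.97. The guanylate-binding protein GBP4 stood at 7.35 ± 0.702 against 128.2 ± 11.2 CPM and GBP1 at 27.8 ± 1.46 against 133.0 ± 7.05 CPM (SD, n = 3 each). The 3 members tested and not called, named after their values were seen, were the MHC class I chains HLA-B (-0.07) and B2M (-0.11) and the cytokine IL7 (0.00). Many genes of both lists answer to more than 1 factor, and earlier results had shown interferon-stimulated genes to be lower, so these counts are no independent support.

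Among partners and competitors, 11 of 15 were tested, with 2 lower, none higher and a median of -0.06. That is near the 21.6% of all genes tested that passed in either direction. BATF2, a leucine zipper protein that pairs with IRF1, stood at 2.30 ± 0.612 against 13.2 ± 1.18 CPM (SD, n = 3 each; log2 fold change -2.51, edgeR adjusted p = 2.05e-13), and the acetyltransferase KAT2B had -0.34. SPI1, the partner of IRF4 and IRF8 on DNA, had 4 counts in all and was not tested. The corepressors named for binding IRF2, given after their values were seen, did not pass, IRF2BP1 at -0.07, IRF2BP2 at 0.05 and IRF2BPL at -0.06 on the log2 scale.

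Of 18 negative regulators, 6 were lower and 3 higher, with a median of -0.09. The cytokine signalling inhibitors SOCS3 (106.2 ± 6.46 against 40.9 ± 1.44 CPM) and SOCS1 (18.3 ± 0.823 against 10.03 ± 0.86 CPM) were higher (SD, n = 3 each), and so, named after its value was seen, was the phosphatase PTPN2 (0.46 on the log2 scale). TRIM21, a ligase that ubiquitinates IRF proteins, was lower, at -0.86 on the log2 scale.

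**Figure D5:**
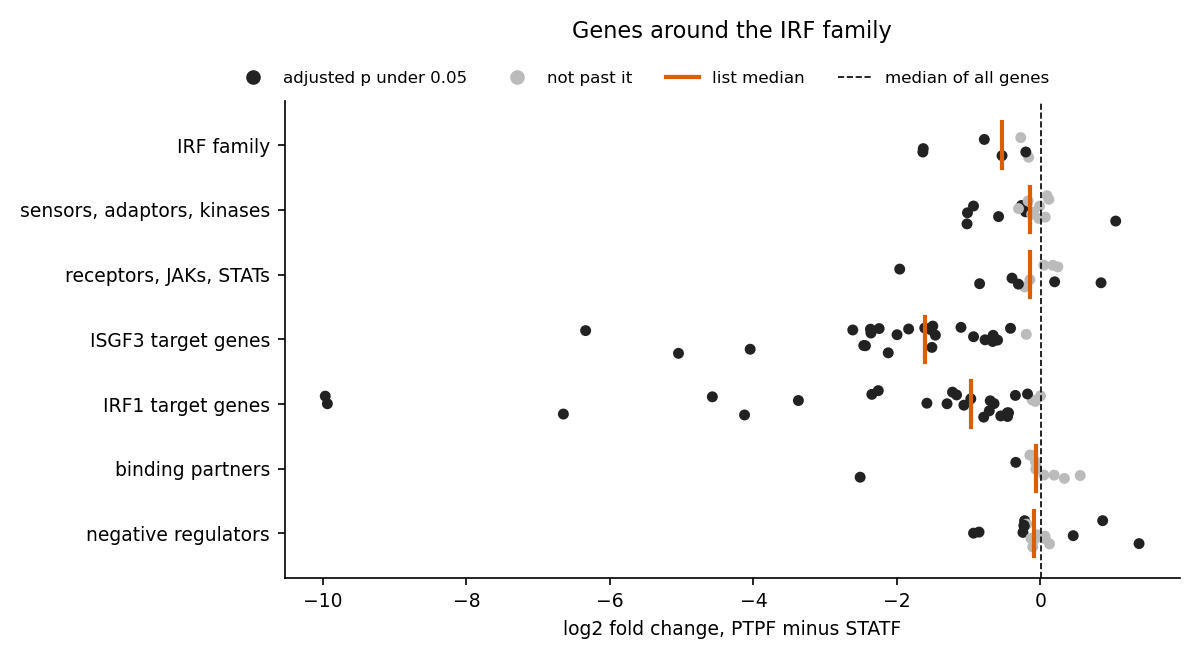
Log2 fold change, PTPF minus STATF (horizontal axis), of every tested gene in the IRF family and in 6 lists around it (interferon genes are left out); black points passed an adjusted p of 0.05, orange lines are list medians and the dashed line is the median of all genes. The points of ISGF3 and IRF1 targets lie mostly left of 0, with medians of -1.61 and -0.97, while the other 4 lists centre near 0; values far left belong to genes with almost no counts under PTPF, and their positions depend on the prior count.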

How the data were processed

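Polyadenylated RNA of 6 HepaRG libraries was sequenced. The build GRCh38, with featureCounts 1.5.0-p3 beside HISAT2 2.0.5 and CASAVA 1.8 as tools, is named in the submitters' processing notes. For the annotation release, the strand setting and reads that map to several genes, nothing is given in the sources used here. Raw, unnormalized read counts per gene were deposited by the authors, with gene length in bases, an other unit, used only to compare levels between genes. Spans of the members and of STAT2 were the same in GENCODE release 29, from which their shared exon bases were computed.

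Samples were grouped by title. After filterByExpr and TMM scaling, the robust quasi-likelihood test of edgeR 4.0.16 (R 4.3.3) was run on the group term, and p-values were adjusted by Benjamini-Hochberg over all genes tested, with a threshold of 0.05. Positive log2 fold changes mean higher in PTPF. Ratios, with 0.5 added to each count, were compared by exact permutation (scipy 1.17.1). Intervals cover 95%. A count of 0 allows 3 counts, a floor for counting error alone, because reads after PCR are not independent molecules.

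The members and lists were chosen with earlier results of these data known. Lists are described by counts and medians. Named genes are the members, the siRNA targets, up to 3 called genes per list with the smallest adjusted p, genes sharing exon bases, and the 3 genes nearest in pattern whose mean log2 CPM was 1 or more. The text leaves out some of these, and says where others were named with their values known. Some items are not reported here. The symbol MB21D1 was looked up through RefSeq synonyms.

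The edgeR script was tested on simulated counts of 17631 genes, 50 changed at each fold. For PTPF against STATF it recovered 88% at 1.5-fold, 96% at 2-fold and 100% at 4-fold and 8-fold, with 8.57% of calls false. Smaller changes were not simulated. Within a group, all pairs of libraries differed by more than sampling noise, with chi-square values of 4.30 to 12.1 per degree of freedom. Alternatives were other scalings and filters, DESeq2 1.42.0, limma-voom 3.58.1, a replicate block, leaving out each library, a threshold of 0.01 and testing against 1.5-fold.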

Additional observations from a re-analysis of the deposited data

How the results depend on the processing

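The direction of every tested member held in all 15 fits, and IRF1, IRF7 and IRF9 passed in each. The 5 members lower in PTPF became 3 at an adjusted p of 0.01 and 2 against 1.5-fold, and 3 to 5 with 1 library left out. Library totals as scaling moved the median of all genes to -0.06. It called 2981 genes lower, among them 2057 of the 2062 called with TMM, and 1164 higher, all among the 1801, with 1 receptor, JAK or STAT gene higher. At an adjusted p of 0.01, 1137 genes were higher. Against 1.5-fold, 187 genes were lower and 116 higher. Of the lists, 3 sensors, 20 ISGF3 targets, 14 IRF1 targets, 1 binding partner and 2 negative regulators were then lower. So were 2 receptor, JAK or STAT genes. Higher were 1 sensor, 1 receptor, JAK or STAT gene and 2 negative regulators. All these stricter tests call fewer genes by construction. With 1 library left out, binding partners had 0 to 1 higher. The share of IRF1 in the summed level was 29.04% under PTPF and 50.1% under STATF without division by length, and 17.0% and 33.1% with levels divided by unshared exon length, a setting chosen after the data were seen. Replicate numbers are only shared numbers: deviations of same-numbered libraries correlated at 0.03, 0.06 and 0.00. With the replicate block 5 members were lower and 0 higher. For the ratios the block says nothing, since with 3 pairs it cannot move the mean difference (-1.48, -0.58 and -0.85) and its sign-flip p cannot go below 0.25. Depth limits IRF4, IRF5, IRF8 and IRF9, which had under 240 counts per library.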
